A study of Mus musculus with 6 samples.

Results

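The miRNAs described here are the miR-7 family and miR-375, which are known from neuroendocrine cells. The members were chosen by name: the guide strands mmu-miR-7a-5p and mmu-miR-7b-5p, the opposite strands mmu-miR-7a-1-3p and mmu-miR-7a-2-3p, and mmu-miR-375-3p, written below without the mouse prefix mmu. These are 5 of the 756 mature microRNAs (miRNAs) in the table, and all 5 passed the filter on low values that left 699 for testing. The libraries hold small RNA of C57BL/6N mice aged 7 weeks, from the dorsal striatum. Mice of the nicotine withdrawal group (n = 3) received nicotine, 0.5 mg/kg by intraperitoneal injection, once daily for 3 days. Withdrawal was precipitated 24 hours after the last nicotine dose by an injection of mecamylamine at 3.0 mg/kg, which blocks nicotinic receptors. Mice of the control group (n = 3) received saline and neither drug, so the effects of nicotine and mecamylamine cannot be told apart. The brains were collected when 1 week had passed since the final injection. The question was how miRNA levels in this region differ after withdrawal. The labels give 3 mice for the withdrawal group but do not tie each library to a mouse, so p-values measure the spread between these libraries.

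A miRNA is cut from a hairpin precursor. One strand of the stem, the guide, usually stays bound to an Argonaute protein and pairs through its seed, bases 2 to 8, with messenger RNAs that it represses, while the opposite strand is mostly degraded. miR-7 is conserved across bilaterian animals, is abundant in the pituitary, the hypothalamus and pancreatic islets, and is known to repress the messenger RNA of alpha-synuclein. In mouse brain its level is known to be set after transcription: the long noncoding RNA Cyrano triggers the decay of miR-7, and the circular RNA Cdr1as, which binds miR-7 at many sites, is itself sliced under the direction of miR-671. miR-375 is best known from pancreatic beta cells, where it restrains insulin secretion, and from the pituitary. None of these target RNAs was measured here.

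The sequences show which reads can be told apart and which cannot. They are from RefSeq on the mouse build GRCm38.p6, written 5′ to 3′ with the seed in capitals, and 4 of the 5 members had a mature entry there (all but miR-375-3p).
miR-7a-5p: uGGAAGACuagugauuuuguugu
miR-7b-5p: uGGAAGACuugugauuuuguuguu
miR-7a-1-3p: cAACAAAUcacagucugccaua
miR-7a-2-3p: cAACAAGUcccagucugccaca
miR-7b-3p: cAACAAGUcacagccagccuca
miR-7a-5p is encoded identically at 2 loci, chr13:58392841-58392863 on the minus strand (mir-7a-1) and chr7:78888295-78888317 on the plus strand (mir-7a-2), so its reads cannot be assigned to one of them. The opposite strands of these loci differ, as miR-7a-1-3p (chr13:58392800-58392821) and miR-7a-2-3p (chr7:78888335-78888356). Counted from 1 at the 5′ end, they differ by A7G, A10C and U21C, of which A7G lies in the seed. miR-7b-5p (chr17:56243017-56243040, plus strand) has the miR-7a-5p sequence with the single substitution A10U and 1 further base at its 3′ end. Both guides therefore share the seed GGAAGAC, which no other miRNA held among the 654 of the 756 with a RefSeq sequence. How reads with mismatches were assigned is not given in the sources used here, so some reads of the guides may have been exchanged between them.

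In the GENCODE M21 annotation of GRCm38, mir-7a-1 lies on the strand of Hnrnpk, which encodes an RNA-binding protein, and falls in introns of all 8 protein-coding transcripts that span it. No annotated gene other than the miRNA itself overlaps mir-7a-2, mir-7b or mir-375. The nearest protein-coding genes are Det1 and Aen around mir-7a-2, Dpp9 and Fem1a around mir-7b, and Cryba2 and Cfap65 around mir-375. The mir-7b hairpin (chr17:56242988-56243098, plus strand) shows how the strands are placed, with miR-7b-5p and then miR-7b-3p in capitals.
mir-7b hairpin: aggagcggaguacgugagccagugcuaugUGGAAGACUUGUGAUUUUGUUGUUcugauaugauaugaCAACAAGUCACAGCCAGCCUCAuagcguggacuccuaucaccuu

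Values are the authors' normalized reads, that is read counts divided by a size factor of each library. If the smallest step between values is 1 read, the withdrawal libraries held 44529730 to 53262896 reads and the saline libraries 40111870 to 50480767. Of the 699 miRNAs tested, 46 passed a Benjamini-Hochberg adjusted p of 0.05 in limma (6.58%), 21 higher in withdrawal (3.00%) and 25 lower (3.58%). Scaled to equal library totals the split was 46 higher and 15 lower, and scaled to equal totals without the most abundant miRNA 32 higher and 16 lower. The labelled tissue was checked against marker lists: the 7 neuronal miRNAs, led by miR-9-5p, summed to between 3047840 and 3116150 normalized reads in withdrawal libraries and between 3106550 and 3131280 in saline libraries. The liver miRNA miR-122-5p stood at 25.3 ± 0.531 in withdrawal and 29.2 ± 8.75 in saline (SD, n = 3 each). It was the lowest of the 3 tested liver and heart miRNAs, and none of these was at 0 in any library. miR-208b-3p stood at 139 ± 19.7 in withdrawal and 159 ± 16.6 in saline. For miR-499-5p the values were 53.7 ± 5.54 in withdrawal and 54.0 ± 1.68 in saline (SD, n = 3 each). No list used here separates dorsal striatum from other brain regions.

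The members covered a range of levels, and their order was nearly the same in every library. By mean level miR-7a-5p ranked 178 of 756, miR-7a-1-3p 253, miR-7b-5p 262, miR-7a-2-3p 308 and miR-375-3p 386. Mature miRNAs are of nearly equal length, 22 to 24 bases for the 4 members with a sequence, so levels were compared without a correction for length; bias of adapter ligation between sequences remains in such comparisons. miR-7a-5p exceeded miR-7a-1-3p in each of the 6 libraries, by 2.45-fold to 3.25-fold. miR-7a-1-3p and miR-7b-5p, next to each other in this order, did not separate, with ratios from 0.995 to 1.23. miR-7b-5p exceeded miR-7a-2-3p by 1.91-fold to 2.17-fold, and miR-7a-2-3p exceeded miR-375-3p by 2.26-fold to 2.86-fold, each in 6 of 6 libraries. The 2 miR-7 guides together summed to 10338 ± 841 normalized reads in withdrawal and 8995 ± 352 in saline (SD, n = 3 each).

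The miRNAs directly around the members in the order of levels were all of other families. miR-7a-5p stood between miR-872-3p and miR-345-5p, which averaged 7534 and 7052 normalized reads over the 6 libraries, and miR-7b-5p between miR-582-5p (2421) and miR-676-5p (2328). miR-7a-1-3p stood between miR-378a-5p (2676) and miR-423-5p (2635), and miR-7a-2-3p between miR-1981-3p (1183) and miR-664-5p (1169). miR-375-3p stood between miR-455-5p (473) and miR-449c-5p (458), the second of which belongs to a family known from ciliated cells.

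miR-7a-5p, the main miR-7 guide, rose in withdrawal, and miR-7b-5p stood higher by a similar size without passing the test. miR-7a-5p had 7239, 7717 and 8602 normalized reads in withdrawal libraries 1 to 3, against 6452, 6889 and 6987 in saline libraries 1 to 3. Every withdrawal library was above every saline library, and withdrawal 3 was the highest of the 6. The mean was 7853 ± 692 in withdrawal and 6776 ± 285 in saline (SD, n = 3 each), a log2 fold change of 0.21 ± 0.05 (SE; 95% interval 0.09 to 0.33), which is 15.7% higher (limma, adjusted p = 0.0357). This was the 37th smallest p of the 699. Within the withdrawal group alone the highest library exceeded the lowest by 1.19-fold, more than the 1.16-fold change between groups. In bulk tissue, more cells that express a miRNA and more of it per cell cannot be told apart.

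miR-7b-5p, with the same seed, had 2387, 2406 and 2664 normalized reads in withdrawal libraries 1 to 3, against 2143, 2248 and 2267 in saline libraries 1 to 3. The groups did not overlap, and withdrawal 3 was again the highest. The mean was 2486 ± 155 in withdrawal and 2219 ± 66.9 in saline (SD, n = 3 each). Its log2 fold change of 0.16 ± 0.05 (95% interval 0.06 to 0.27) did not pass (limma, adjusted p = 0.0695, the 58th smallest p). At 1892 to 3193 estimated reads per library its counting error was at most 2.30%, below the 11.9% difference.

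The miR-7a-5p call changed with the spread estimate and with the libraries kept. It ended in limma without a trend of variance on level (adjusted p = 0.277) and with quantile normalization (adjusted p = 0.266), at log2 fold changes of 0.21 and 0.18. It also ended without saline 1 (0.18, adjusted p = 0.106), without saline 2 (0.22, adjusted p = 0.114), without saline 3 (0.23, adjusted p = 0.0568) and without withdrawal 2 (0.22, adjusted p = 0.101, all limma). Without saline 2, saline 3 or withdrawal 2 the log2 fold change was not below the 0.21 of all libraries. In those fits the count of all miRNAs past the threshold also fell, from 46 to 13, 22 and 21. Without saline 1 that count was 47. Without withdrawal 3, its highest library, miR-7a-5p stood at 0.14 and passed (limma, adjusted p = 0.0464), and without withdrawal 1 at 0.27 (limma, adjusted p = 0.00633). The direction was the same in all 17 alternative settings for both guides.

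**Figure D1:**
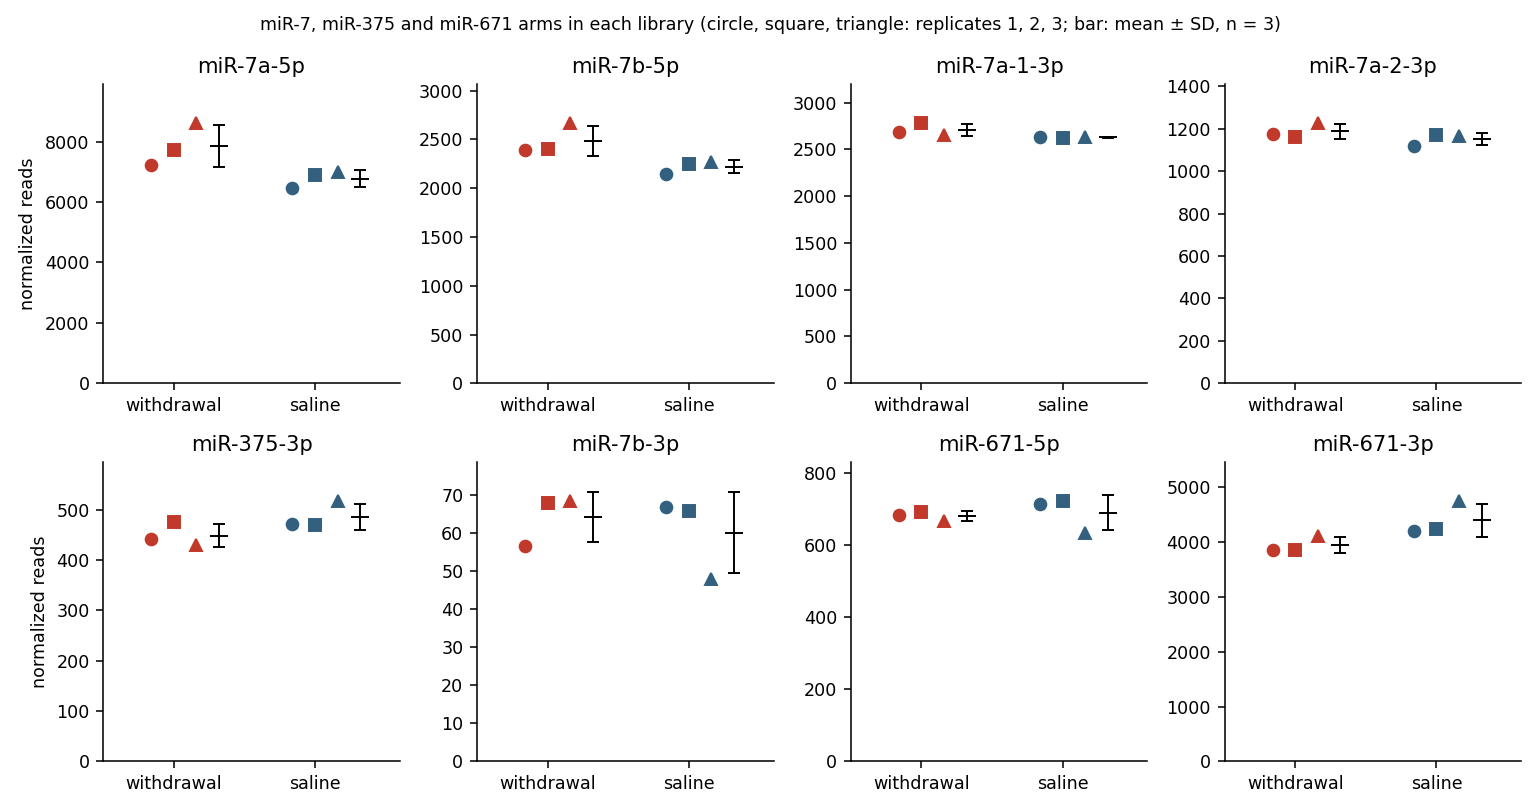
Normalized reads (y axis, from 0) of the 5 members, miR-7b-3p and both arms of miR-671 in each of the 3 withdrawal and 3 saline libraries, with marker shapes for the replicate number and bars for mean ± SD. miR-7a-5p lies between 7239 and 8602 in withdrawal and between 6452 and 6987 in saline, while miR-375-3p overlaps between the groups.

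The opposite, or passenger, strands of miR-7a, which are mostly degraded, did not pass the test in either direction. miR-7a-1-3p had 2690, 2777 and 2650 normalized reads in withdrawal libraries 1 to 3, against 2634, 2621 and 2633 in saline libraries 1 to 3. The groups did not overlap, but the gap between the lowest withdrawal and the highest saline library was 15.5 normalized reads. Its counting error was up to 2.07%, more than that gap and close to the 2.86% difference between groups. The log2 fold change was 0.041 ± 0.038 (95% interval -0.04 to 0.12; limma, adjusted p = 0.585).

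miR-7a-2-3p had 1175, 1163 and 1226 normalized reads in withdrawal libraries 1 to 3, against 1119, 1170 and 1165 in saline libraries 1 to 3, and the groups overlapped. Its log2 fold change was 0.045 ± 0.048 (95% interval -0.06 to 0.15; limma, adjusted p = 0.632). For both opposite strands the interval ends below 0.21, the estimate for miR-7a-5p. It overlaps the miR-7a-5p interval of 0.09 to 0.33, so a difference between the strands is not shown by these intervals. miR-7b-3p, the opposite strand of miR-7b, ranked 531 of 756 by mean level, with a counting error of up to 14.4%. It had 56.7, 67.9 and 68.4 normalized reads in withdrawal libraries 1 to 3, against 66.8, 65.8 and 47.9 in saline libraries 1 to 3. Its log2 fold change was 0.11 ± 0.18 (limma, adjusted p = 0.793), at 48 to 82 estimated reads.

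In all, 1 of the 5 members passed in limma, where 6.58% of tested miRNAs were called in either direction and 3.00% higher. An unadjusted p under 0.05 was found for 2 of the 5, where 22.9% of tested miRNAs had one. These 2 were the guides miR-7a-5p and miR-7b-5p, between which some reads may have been exchanged, so they may not be separate signals. The groups did not overlap for 3 of the 5, all in the higher direction, where 13.0% of tested miRNAs had no overlap in that direction and 27.6% in either. The median log2 fold change of the members was 0.045, beside 0.0026 over all 699.

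**Figure D2:**
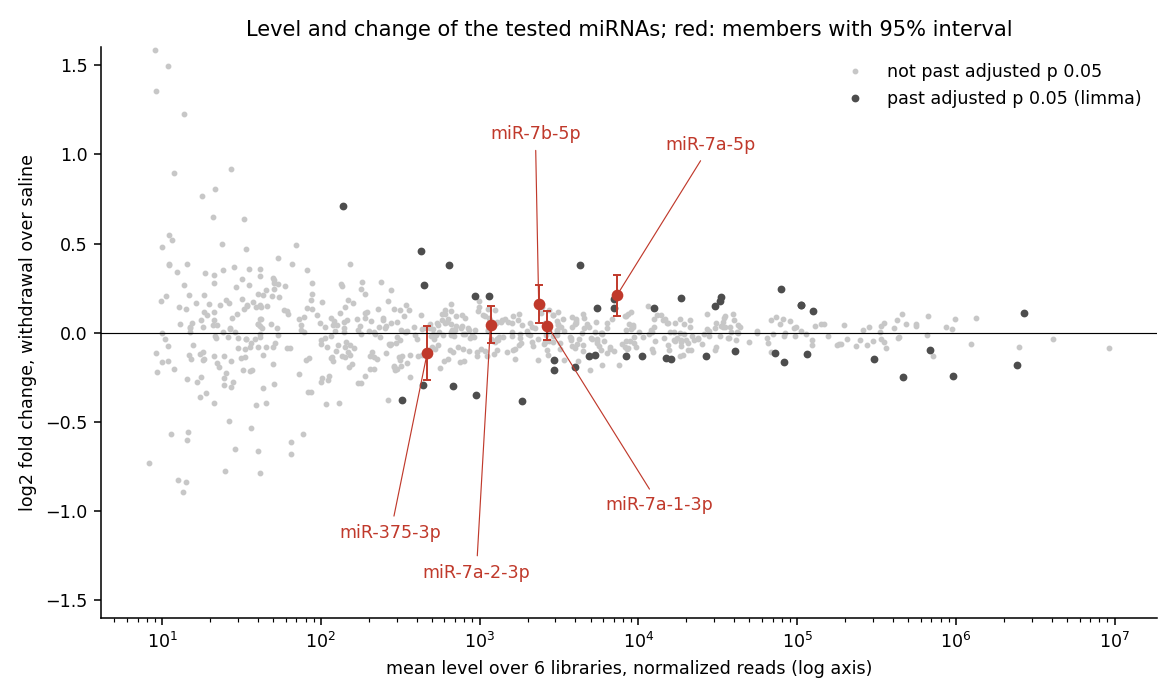
Log2 fold change of withdrawal over saline (y axis) against mean level in normalized reads (x axis, log scale) for the tested miRNAs, with the members in red and their 95% intervals. The intervals of miR-7a-5p at 0.21 and miR-7b-5p at 0.16 lie above 0, while the intervals of miR-7a-1-3p, miR-7a-2-3p and miR-375-3p include 0; 2 miRNAs lie outside the axis range of 1.6 either way.

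The balance of strands was compared within libraries, which removes library scaling. miR-7a-5p was 1.87, 1.96 and 2.22 times the sum of miR-7a-1-3p and miR-7a-2-3p in withdrawal libraries 1 to 3, against 1.72, 1.82 and 1.84 times in saline libraries 1 to 3. The withdrawal libraries were all above the saline libraries, withdrawal 1 by a small margin. On the log2 scale the ratio was 0.17 ± 0.08 higher in withdrawal (95% interval -0.02 to 0.36), which did not pass in a limma fit over 204 precursors (adjusted p = 0.359, unadjusted p = 0.0757). In that fit 0 precursors passed (0.00%; 33 at an unadjusted p under 0.05, or 16.2%). A shift in the balance of guide and passenger strands was thus not shown. Against each passenger alone, miR-7a-5p stood at 2.69 to 3.25 times miR-7a-1-3p in withdrawal and 2.45 to 2.65 times in saline, and at 6.16 to 7.02 times miR-7a-2-3p in withdrawal and 5.77 to 6.00 times in saline.

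A large part of the reads of the miR-7a hairpins came from the passenger side, and a small part of those of mir-7b. The 3p arms made up 34.8%, 33.8% and 31.1% of miR-7a reads in withdrawal libraries 1 to 3, against 36.8%, 35.5% and 35.2% in saline libraries 1 to 3. For miR-7b the 3p arm made up 2.52 ± 0.212% in withdrawal and 2.65 ± 0.507% in saline (SD, n = 3 each). Over all libraries the weaker arm took 34.4% for miR-7a and 2.58% for miR-7b, where the median of the 204 precursors was 6.72%. For 26 precursors this share was larger than for miR-7a, and for 129 it was larger than for miR-7b. These shares are a description of levels between sequences and include ligation bias. The miR-7b ratio of 5p to 3p did not differ beyond its spread, at 38.8 ± 3.32 in withdrawal and 37.9 ± 8.26 in saline (limma over precursors, adjusted p = 0.91).

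Since the guide is shared between the miR-7a loci, only the 3p arms can be told apart by locus. These arms are mostly degraded and differ in sequence. Their shares thus include decay and ligation bias and do not measure how much of miR-7a each locus makes. miR-7a-1-3p, from the Hnrnpk intron, made up 69.6%, 70.5% and 68.4% of miR-7a 3p reads in withdrawal libraries 1 to 3, against 70.2%, 69.1% and 69.3% in saline libraries 1 to 3. The groups overlapped, with a difference in means of -0.069 percentage points (exact permutation test, two-sided, p = 1; the smallest p that 3 against 3 allows is 0.1). The share of miR-7a-5p among both guides was 75.2%, 76.2% and 76.4% in withdrawal libraries 1 to 3, against 75.1%, 75.4% and 75.5% in saline libraries 1 to 3. Withdrawal 1 lay among the saline libraries, and the difference of 0.61 percentage points did not pass (exact permutation test, two-sided, p = 0.3).

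**Figure D3:**
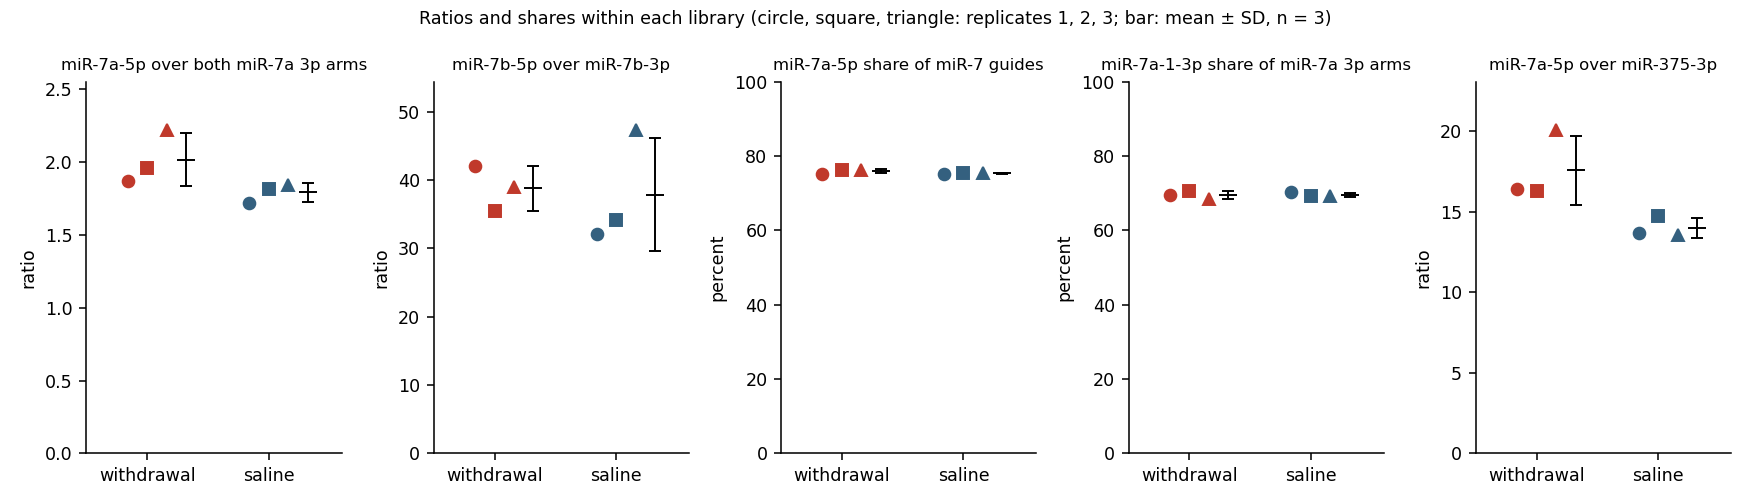
Ratios and shares within each library (y axes from 0, ratio or percent) for the 3 withdrawal and 3 saline libraries, with bars for mean ± SD. The ratio of miR-7a-5p to both miR-7a 3p arms runs from 1.87 to 2.22 in withdrawal and from 1.72 to 1.84 in saline, while the shares of the guides and of the 3p arms lie close together in all libraries.

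miR-375-3p, the islet and pituitary miRNA, was the least abundant member in every library, and its difference between groups did not pass the test. It had 442, 474 and 429 normalized reads in withdrawal libraries 1 to 3, against 471, 468 and 516 in saline libraries 1 to 3. The groups overlapped because withdrawal 2 lay above saline 1 and saline 2. The mean was 448 ± 23.4 in withdrawal and 485 ± 26.7 in saline (SD, n = 3 each), a log2 fold change of -0.11 ± 0.07 (95% interval -0.26 to 0.04) that did not pass (limma, adjusted p = 0.368). The interval runs from 16.8% lower to 2.67% higher, so it excludes a rise of the size seen for miR-7a-5p. At 416 to 531 estimated reads the counting error was up to 4.90%, against a difference of 7.56%. miR-375-5p was not analysed here.

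Set against each other within a library, miR-7a-5p was 16.4, 16.3 and 20.1 times miR-375-3p in withdrawal libraries 1 to 3, against 13.7, 14.7 and 13.5 times in saline libraries 1 to 3. All withdrawal libraries were above all saline libraries. This ratio joins the differences of miR-7a-5p and miR-375-3p already given, so it is not a separate result. The share of such ratios without overlap was not computed. The log2 ratio of miR-375-3p to miR-7a-5p differed by -0.32, at -4.13 ± 0.172 in withdrawal and -3.80 ± 0.0646 in saline (SD, n = 3 each; exact permutation test, two-sided, p = 0.1, the smallest that 3 against 3 allows, so that this design could not reach 0.05).

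miR-671, whose 5p arm directs the slicing of Cdr1as, was set beside the family. miR-671-5p had 683, 691 and 665 normalized reads in withdrawal libraries 1 to 3, against 712, 720 and 633 in saline libraries 1 to 3. The groups overlapped, saline 3 being the lowest of the 6, and the log2 fold change was -0.017 ± 0.063 (limma, adjusted p = 0.933). miR-671-3p, the more abundant arm, had 3861, 3860 and 4111 in withdrawal libraries 1 to 3, against 4207, 4249 and 4745 in saline libraries 1 to 3. Every withdrawal library was below every saline library (14.6% of tested miRNAs had no overlap in the lower direction), but its log2 fold change of -0.16 ± 0.05 did not pass (limma, adjusted p = 0.0762).

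**Figure D4:**
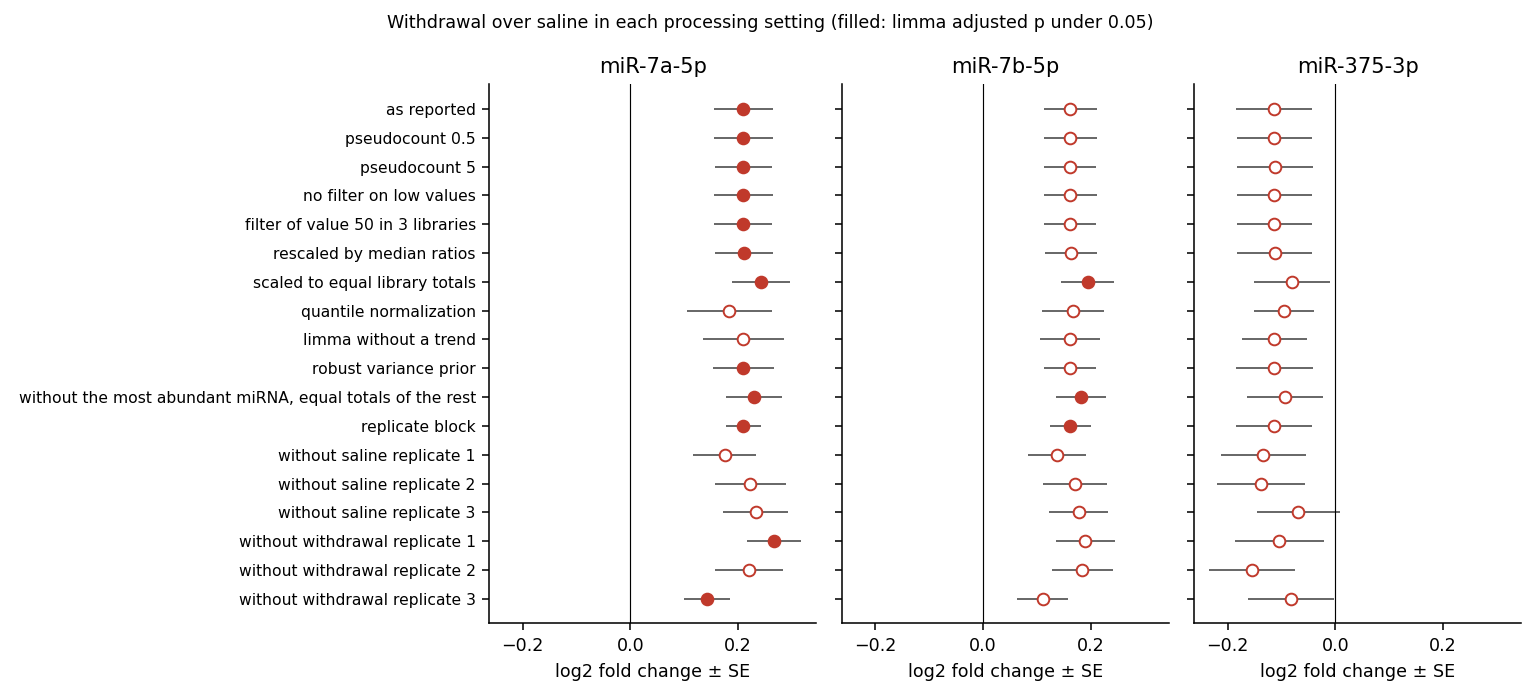
Log2 fold change ± SE of withdrawal over saline (x axis) for miR-7a-5p, miR-7b-5p and miR-375-3p as reported and in each alternative setting (rows), filled where the limma adjusted p was under 0.05. miR-7a-5p ranges from 0.14 to 0.27 and miR-7b-5p from 0.11 to 0.19, all above 0, and miR-375-3p from -0.15 to -0.07.

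Among other miRNAs known from pituitary, islet or endocrine cells, a list chosen with earlier results of these data known, the test called no further member. Of the 14 listed, all tested, miR-7a-5p was the 1 called higher, 0 were called lower and 13 did not pass in limma, where 3.00% of tested miRNAs were called higher and 3.58% lower. The median log2 fold change of the list was -0.022, beside 0.0026 over all 699, and 6 of the 14 values were above 0. Its most abundant member, miR-26a-5p, which is widely expressed, averaged 2437100 ± 37194 normalized reads in withdrawal and 2579580 ± 34528 in saline (SD, n = 3 each), a log2 fold change of -0.08 that did not pass (limma, adjusted p = 0.108).

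Of the lists for other cell types that a dissection of striatum could hold, some had members called higher in withdrawal and others did not. Of 9 epithelial and sensory miRNAs in the table, 8 were tested, 5 did not pass and 3 were called higher in limma, where 3.00% of tested miRNAs were: miR-141-3p of the miR-200 family, and miR-182-5p and miR-183-5p of a cluster known from sensory cells. miR-182-5p, the most abundant of them, had 4596, 4550 and 5481 normalized reads in withdrawal libraries 1 to 3, against 3725, 3846 and 3629 in saline libraries 1 to 3. Withdrawal 3 was the highest of the 6, as it was for both miR-7 guides and for miR-141-3p (199). For miR-183-5p the highest was withdrawal 2 (507, against 492 in withdrawal 3). The share of all tested miRNAs that were highest in withdrawal 3 was not computed. The log2 fold change of miR-182-5p was 0.38 ± 0.06 (limma, adjusted p = 0.00673). It was 0.46 ± 0.07 for miR-183-5p (limma, adjusted p = 0.00673) and 0.71 ± 0.13 for miR-141-3p (limma, adjusted p = 0.00759). The list summed to between 5860 and 6916 normalized reads in withdrawal libraries and between 4668 and 4900 in saline libraries, its median log2 fold change was 0.38, and miR-200c-3p was at 0 in 1 library.

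Of 5 red cell miRNAs, miR-486a-5p and miR-486b-5p were called higher at a log2 fold change of 0.16 each (limma, adjusted p = 0.00673 each; 3.00% of tested miRNAs were called higher). Their values nearly coincided in every library, as at 109633 and 109522 normalized reads in withdrawal 1. The same reads may thus be counted under both names, and these calls may be 1 signal. The other 3 did not pass in limma and overlapped between groups: miR-451a at 0.15 (adjusted p = 0.0688), miR-144-5p at 0.07 (adjusted p = 0.659) and miR-144-3p at 0.015 (adjusted p = 0.933). The list, of which miR-486a-5p and miR-486b-5p make up most, summed to between 232541 and 239535 normalized reads in withdrawal libraries and between 208206 and 215110 in saline libraries. Reads shared by miR-486a-5p and miR-486b-5p would be counted repeatedly in this sum. None of the 6 choroid plexus and ependyma miRNAs passed in limma, among them the most abundant, miR-204-5p, at 0.07 (adjusted p = 0.156). Their sum was between 100955 and 103339 in withdrawal libraries and between 96052 and 99815 in saline libraries, so these groups did not overlap either. Most of this sum was miR-204-5p, at 92113 ± 1318 in withdrawal and 87931 ± 1967 in saline (SD, n = 3 each). Among single tested miRNAs, 13.0% had no overlap in the higher direction.

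Of the hindbrain and Hox list, 2 of 5 miRNAs were in the table. miR-10b-5p was called higher at a log2 fold change of 0.38 (limma, adjusted p = 0.0130; 3.00% of tested miRNAs were called higher). miR-10a-5p, the most abundant, stood at -0.05 (limma, adjusted p = 0.507). The list summed to between 6471 and 6976 in withdrawal libraries and between 6432 and 6889 in saline libraries. Among the 7 neuronal miRNAs, miR-138-5p fell, by 0.25 on the log2 scale (limma, adjusted p = 0.00934; 3.58% of tested miRNAs were called lower). The other 6 did not pass, among them miR-9-5p at 0.09 (limma, adjusted p = 0.156). The median of this list was 0.046, with 5 of 7 values above 0. Among 4 oligodendrocyte miRNAs, miR-338-3p, the most abundant, fell by 0.16 (limma, adjusted p = 0.00723; 3.58% of tested miRNAs were called lower). The other 3 did not pass, among them miR-338-5p of the same hairpin at 0.11 (limma, adjusted p = 0.178), and the median of the list was 0.026, with 2 of 4 values above 0. None of the 3 liver and heart miRNAs passed in limma. Their most abundant, miR-208b-3p, was at 139 ± 19.7 normalized reads in withdrawal and 159 ± 16.6 in saline (SD, n = 3 each). No marker of any list was at 0 in every library. The part of these cell types in the rise of miR-7a-5p was not tested.

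**Figure D5:**
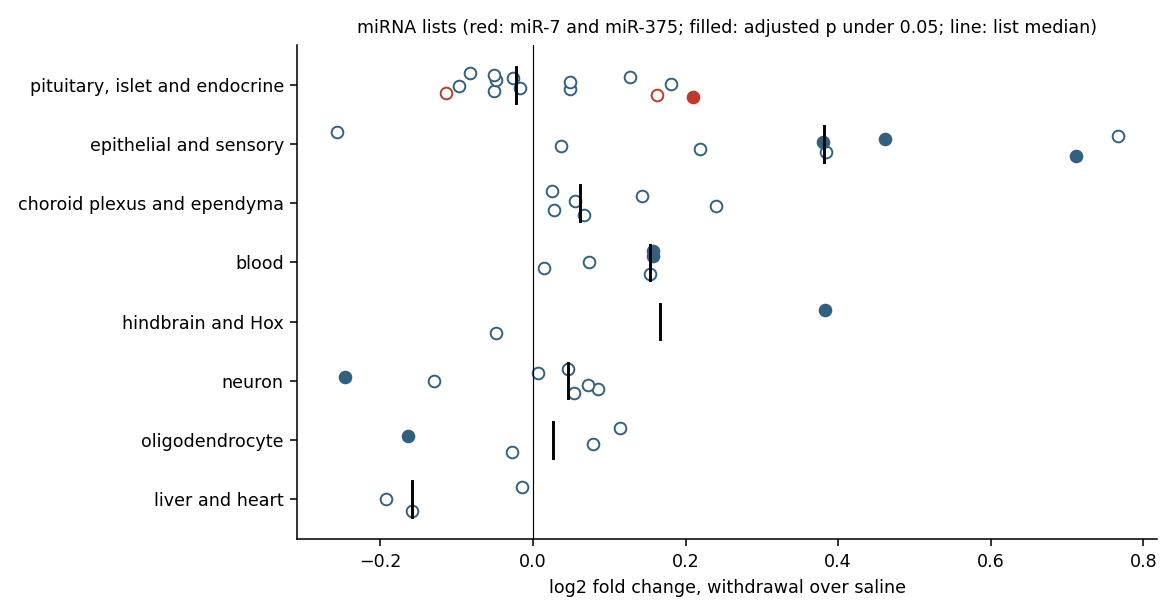
Log2 fold change of withdrawal over saline (x axis) for each tested miRNA of the 8 lists (rows), with miR-7 and miR-375 in red, filled points where the limma adjusted p was under 0.05 and a line at each list's median. The epithelial and sensory list has a median of 0.38 and the pituitary, islet and endocrine list one of -0.022.

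The miRNAs whose pattern over the 6 libraries was closest to that of miR-7a-5p were found by the root mean square difference of centred log2 values among 499 miRNAs with a mean of at least 100 normalized reads. They were miR-146b-5p (0.0278), miR-148a-5p (0.0402) and miR-3535 (0.0405), where the median candidate was at 0.151. miR-146b-5p had 80077, 84530 and 93335 normalized reads in withdrawal libraries 1 to 3, against 70956, 72931 and 73441 in saline libraries 1 to 3. It follows the order of libraries seen for miR-7a-5p, with withdrawal 3 highest and saline 1 lowest. For miR-375-3p the closest were miR-764-5p (0.0337), miR-151-3p (0.0454) and miR-378d (0.0472), with the median candidate at 0.106. miR-764-5p had 423, 440 and 381 normalized reads in withdrawal libraries 1 to 3, against 446, 431 and 480 in saline libraries 1 to 3. All these values come from the same 6 libraries, so likeness includes what a library shares.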

How the data were processed

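Per the labels' protocols, libraries of dorsal striatum RNA were made with a TruSeq kit for small RNA. The deposited table holds a signal value per mature miRNA and library: a read count divided by a size factor by the authors. The submitters' processing notes name DESeq2 and the build mm9; the aligner is not given in the sources used here. Each library's lower values, the only ones checked, are whole multiples of 1 step (within 0.01). This step was taken as 1 read to estimate reads and counting error. Because no value equals 1 step, whole reads could not be established, and limma was used in place of a count test. Values were log2-transformed with a pseudocount of 1 after keeping miRNAs at 10 or more in at least 3 libraries (699 of 756), and fitted with limma 3.58.1 (trend of variance, R 4.3.3), with Benjamini-Hochberg adjustment over all 699 and a threshold of 0.05. Fold changes are on the log2(value + 1) scale. Ratios of 5p to 3p arms were fitted with limma over 204 precursors, and 3 within-library values by exact permutation (scipy 1.17.1). Only the main limma fit was tested on simulated data. These were drawn with the spread estimates of that same fit, so they cannot test its trend of variance. The named miRNAs are the members, their other arms, miR-671, each list's most abundant and called members, the 3 closest in pattern to miR-7a-5p and to miR-375-3p, and the neighbours in level. miR-122-5p, miR-499-5p, miR-200c-3p, miR-451a, miR-144-5p, miR-144-3p and miR-338-5p were named after their values were seen. Members and lists were chosen with earlier results of these data known. RefSeq coordinates are of GRCm38 and were not converted to mm9. Intervals cover 95%, and counting errors cover counting only.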

Additional observations from a re-analysis of the deposited data

How the results depend on the processing

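The count past the threshold, 46, was 22 with quantile normalization and 0 where limma had no trend of variance (112 at an unadjusted p under 0.05; adjusted p at least 0.141). It ranged from 13 to 58 with 1 library left out, at 13 without saline 2, 22 without saline 3 and 21 without withdrawal 2. The miR-7a-5p log2 fold change was 0.18 with quantile normalization and 0.21 without a trend, both no longer past the threshold, and 0.14 to 0.27 with 1 library left out, passing in 2 of those 6 fits. Its limma adjusted p ranged from 0.000979 to 0.277 over 17 alternatives. miR-7b-5p passed at 0.19 with equal library totals (limma, adjusted p = 0.0292) and 0.18 without the most abundant miRNA (limma, adjusted p = 0.0390), and was at 0.11 to 0.19 with 1 library left out. miR-7a-1-3p, miR-7a-2-3p and miR-375-3p kept their direction and did not pass in the 17 alternatives. The causes of these shifts were not tested.

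The replicate numbers were not shown to pair the libraries: same-numbered deviations correlated at -0.07, 0.09 and 0.04, and 3 of 6 libraries correlated best with their own number. With the replicate block the count was 106 (49 higher, 57 lower, including all 46), and miR-7b-5p at 0.16 (limma, adjusted p = 0.0130) and miR-671-3p at -0.16 (limma, adjusted p = 0.00529) passed. miR-671-3p also passed without withdrawal 3.

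Values near 0 changed sign. miR-671-5p was 0.016 with equal totals, 0.0035 without the most abundant miRNA and -0.076 to 0.017 with 1 library left out. With 1 library left out, miR-7b-3p ranged from -0.047 to 0.19, the miR-7b arm ratio from -0.051 to 0.23, and the difference in the miR-7a-1-3p share from -0.56 to 0.49 percentage points. The count of arm ratios past the threshold was 0 to 1, at 1 without withdrawal 3. Planned count tests with edgeR and DESeq2 were not run, because whole reads could not be established. Among the members, miR-7b-3p and the miR-671 arms, miR-7b-3p had the largest counting error, up to 14.4%.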
